A study of Homo sapiens with 8 samples.

Results

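The mRNAs of 45 proteins of the large cytosolic ribosomal subunit were followed, RPL3 to RPL41 with RPLP0, RPLP1 and RPLP2, each matched by its exact gene symbol with pseudogenes left out. All 45 were found among the 57978 genes listed for both media, and all 45 passed the filter of a mean of 1 RPKM (reads scaled to exon length and sequencing depth) that left 10100 genes for testing. The samples were HEK293T cells, a transformed human embryonic kidney line, that expressed eIF3d-TEV, the translation initiation factor subunit eIF3d carrying an HA tag and a TEV protease site. Cells spent 48 h either in complete media (DMEM with 10% FBS) or in glucose-free media (DMEM lacking glucose, with dialyzed FBS at 10%). All groups carried eIF3d-TEV and were crosslinked with ultraviolet light of 254 nm before eIF3d was pulled down through HA and cut free by TEV protease, and polyA libraries were read from the input and from this immunoprecipitate (IP, Subunit-Seq), 2 libraries in each of 4 groups. The labels do not say whether the line was 1 clone or whether the numbered replicates were grown apart, so the p-values reflect the spread among libraries only, which may be technical. An IP of untagged cells was not analysed here, so the IP values have no background level.

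Ribosomal protein mRNAs encode the protein part of the ribosome and are among the most abundant mRNAs of growing cells. Most of them begin with a cap-adjacent cytidine and an unbroken run of pyrimidines, the 5′ terminal oligopyrimidine (TOP) motif, through which mTORC1 and the RNA-binding protein LARP1 adjust their translation to nutrients. eIF3d is the eIF3 subunit that can itself hold the 5′ cap of some mRNAs, and the design compared which mRNAs came down with it in fed cells and in cells without glucose.

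The starts of these transcripts are shown because the TOP motif is what the family shares beyond its protein role. RefSeq start sites (GRCh38.p14) were listed for 38 of the 45 members, and in 28 of them (73.7%) at least 1 listed start opened with a C followed directly by at least 4 pyrimidines, against 5.14% of the 27305 genes in the same table. Only the transcribed strand was searched, at the listed start. The 30 bases below run from 10 before the start to 20 from it, 5′ to 3′, and capitals mark the pyrimidine run.
RPLP1 (chr15:69452808-69452837, plus strand): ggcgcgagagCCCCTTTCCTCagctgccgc
RPL12 (chr9:127451387-127451416, minus strand): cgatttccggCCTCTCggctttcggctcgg
RPLP2 (chr11:809957-809986, plus strand): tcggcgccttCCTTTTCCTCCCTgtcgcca
RPL41 (chr12:56116623-56116652, plus strand): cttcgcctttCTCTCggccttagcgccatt
RPL11 (chr1:23691796-23691825, plus strand): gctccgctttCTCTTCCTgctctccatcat
RPL29 (chr3:51995876-51995905, minus strand): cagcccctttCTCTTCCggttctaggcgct
RPL27 (chr17:42998409-42998438, plus strand): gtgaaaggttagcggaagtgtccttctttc
RPL3 (chr22:39319604-39319633, minus strand): gccgaccggcctctaccggcgggatttgat
RPLP1, RPL12 and RPLP2 of the stalk, with RPL27, were among the members lowest in the IP of complete medium, and RPL3 was among the highest in both media. RPL27 and RPL3 carry no run that meets the rule at the listed start. RPL3 opens with 4 pyrimidines, just short of it, where RPL41 with a run of 5 just meets it. Runs were 5 to 19 bases long, with a median of 8. No match at a listed start says only that these letters are not there.

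The libraries held 8656922 to 43400894 reads as recovered from the RPKM values, with the fewest in the glucose-free IPs, and 143897 to 4021474 of them lay on the 45 members. Mitochondrial rRNA took 26.8% to 50.7% of reads in the 4 inputs, 1.26% and 10.6% in the complete IPs and 0.399% to 0.613% in the IPs without glucose. Library composition therefore moved with both contrasts, and its part in the results was not tested. Of 12 markers of other cell types, 0 to 3 per library reached 1 RPKM, while ALB of liver was at 0 in all inputs and HBB of erythroid cells in 7 of 8 libraries. HBA1, an erythroid globin, was the marker highest in the inputs, with 10.0 and 5.41 RPKM in the complete inputs against 2.08 and 2.10 in the glucose-free inputs. The 12 summed to 7.39 to 11.7 RPKM in the complete inputs, 7.12 to 10.1 in their IPs, 2.67 to 2.89 in the inputs without glucose and 2.72 to 4.99 in their IPs, and their part in the results was not tested. Replicates correlated across the 45 members with r = 0.988 (inputs) and 0.886 (IPs) in complete medium and r = 0.9995 and 0.997 without glucose, on the log2 scale. The members lay a median of 1.08 log2 units higher in complete input replicate 1 than in replicate 2, so results that rest on the complete inputs are also given without each of them.

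Large subunit mRNAs took a large part of the coding reads in the inputs and a small one with eIF3d. Of the reads on nuclear protein-coding genes, the 45 members held 27.9% and 18.6% in the inputs of complete medium and 1.31% and 1.26% in its IPs. Without glucose they held 32.1% and 31.9% in the inputs and 5.51% and 5.54% in the IPs. The IP libraries lay far below the inputs in each medium with no overlap, and both glucose-free IPs lay above both complete IPs. As means the share was 23.2% ± 6.58 in the input and 1.28% ± 0.0355 in the IP of complete medium (SD, n = 2), 18.1-fold lower. Without glucose it was 32.0% ± 0.110 and 5.53% ± 0.0191 (SD, n = 2), 5.80-fold lower. Between media the IP share was 4.31-fold higher without glucose. Each of these comparisons gave p = 0.333 in the exact two-sided permutation test, the smallest p that 2 libraries against 2 allow. Exact Clopper-Pearson 95% intervals of the single shares were at most 0.0640 percentage points wide and cover counting error only. In bulk libraries, fewer cells with an mRNA and less of it per cell cannot be told apart. The values of each medium were deposited apart. Medium and any difference in how the values were made therefore cannot be told apart, here and in each later comparison between media.

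**Figure D1:**
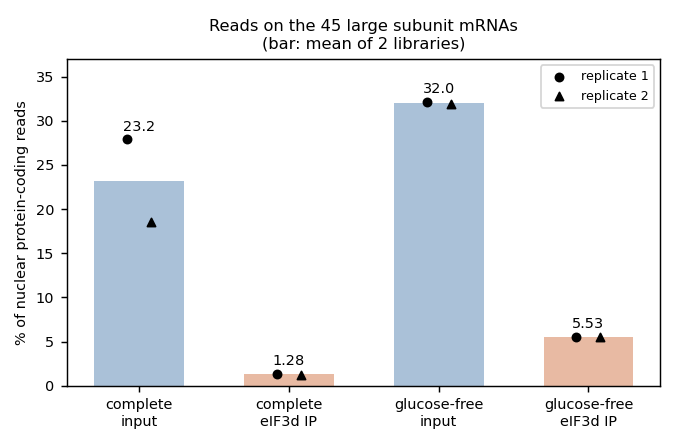
Percent of nuclear protein-coding reads on the 45 large subunit mRNAs in each library (points) and the mean of 2 libraries (bars), by medium and by input or eIF3d IP. The complete IPs lie at 1.26% and 1.31%, the glucose-free IPs at 5.51% and 5.54%, and all inputs between 18.6% and 32.1%.

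The mRNAs of the small subunit, which share the TOP control of this family, were low with eIF3d as well. The 32 listed held 18.9% and 12.3% of coding reads in the inputs but 0.740% and 0.780% in the IPs of complete medium, and 24.1% and 24.4% but 3.74% and 3.79% without glucose. The ratio of large to small subunit reads was 1.47 and 1.51 in the inputs of complete medium and 1.77 and 1.61 in its IPs. Without glucose it was 1.33 and 1.31 in the inputs and 1.47 and 1.46 in the IPs. In each medium both IPs lay above both inputs in this ratio (exact permutation p = 0.333, the smallest possible).

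For single genes, each library's RPKM was scaled to a common median over the tested genes, and log2(scaled RPKM + 1) was fitted with limma, with Benjamini-Hochberg adjustment over all 10100 genes and a threshold of 0.05. Changes below are log2 differences on that scale, with their SE, and are relative to a shift of the median gene that was present as deposited, 1.11 in the complete IP against input and 1.58 in the glucose-free one. In complete medium 45 of 45 members fell in the IP on this scale (43 as deposited), where 30.1% of all tested genes were called lower and 30.0% higher. The members' median was -4.71 (range -6.52 to -2.18) and that of all tested genes 0.03. Without glucose 45 of 45 fell as well (35, with 2 higher, as deposited), where 32.1% of all genes were called lower and 28.0% higher, with a median of -4.15 (range -6.44 to -1.39) against -0.02 for all genes. Of the members, 34 lay below -4 in complete medium and 27 without glucose.

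The direction depended on the scale for up to 9 of the 45 members in the glucose-free IP. Fitted as deposited, 43 members were lower in complete medium and 35 without glucose, where RPL3 and RPL4 passed as higher, and the calls over all genes turned to 1245 lower with 6426 higher and 554 lower with 8250 higher. With quantile normalization 38 were lower in complete medium, and without glucose 17 were lower and 5 higher (RPL3, RPL4, RPL5, RPL7A and RPL8). On that scale 36 members stood below 0 without glucose and 9 above it, called or not. With each library scaled to the coding reads outside the members, 44 and 42 were lower and no member passed as higher. RPL3 and RPL4 stood at 0.65 and 0.15 without glucose. Over the alternatives other than leaving out 1 library, calls over all genes ran from 1245 to 3315 lower and 1412 to 6426 higher in complete medium. Without glucose they ran from 554 to 4186 lower and 1531 to 8250 higher. Both IP libraries lay below both inputs for 45 members in each medium after scaling, as for 36.1% and 45.9% of all tested genes. As deposited this held for 44 members in complete medium and 42 without glucose, against 15.3% and 8.36% of all tested genes.

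**Figure D2:**
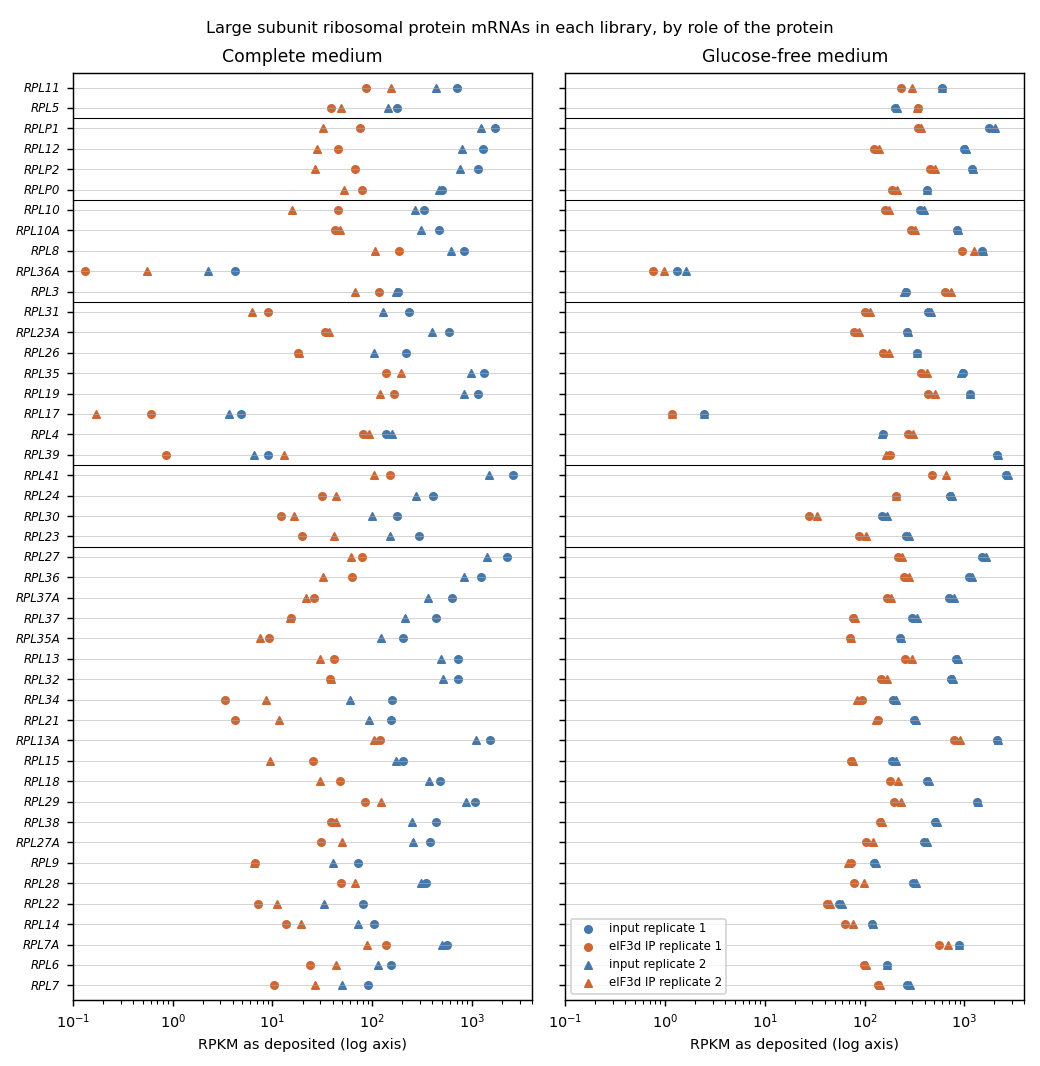
RPKM as deposited (log axis) of each of the 45 mRNAs in the inputs (blue) and eIF3d IPs (orange) of complete and glucose-free media, with circles for replicate 1 and triangles for replicate 2, grouped by role of the protein. In complete medium every IP point lies left of its inputs except for RPL39, and in glucose-free medium RPL3, RPL4 and RPL5 lie right of theirs on this unscaled axis.

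RPL5 (chromosome 1, 92831983 to 92841924, plus strand) and RPL11 (chromosome 1, 23691742 to 23696835, plus strand; GRCh38, GENCODE release 29) encode the proteins that travel with 5S rRNA into the ribosome and that, when free, bind the ubiquitin ligase MDM2. RPL5 stood at 178 and 143 RPKM in the inputs of complete medium and 38.9 and 48.2 in its IPs. Without glucose it stood at 201 and 213 RPKM in the inputs and 346 and 335 in the IPs. Its IP values were below the inputs in complete medium and, as deposited, above them without glucose, while after scaling the glucose-free values were 791 and 782 in the inputs and 202 and 169 in the IPs. The scaled log2 change was -3.53 ± 0.40 in complete medium (limma adjusted p = 0.000125) and -2.08 ± 0.40 without glucose (limma adjusted p = 0.00189). The glucose-free change turned to 0.72 as deposited and to 1.49 with quantile normalization, and was -0.05 with libraries scaled to the other coding reads. RPL11 had input values of 709 and 431 RPKM and IP values of 86.7 and 154 in complete medium, against 604 and 602 and, in the IP, 231 and 299 without glucose. Its IPs were below its inputs in both media, at -3.92 ± 0.52 and -3.998 ± 0.52 (limma adjusted p = 0.000275 and 0.000232), and with quantile normalization both calls were lost (-0.83 and -0.22). The values of RPL11 in both media differed by -0.07 ± 0.73 (95% interval -1.74 to 1.59, limma adjusted p = 0.955), while those of RPL5 differed by 1.44 ± 0.57 (95% interval 0.16 to 2.73, limma adjusted p = 0.15, not past the threshold).

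The stalk proteins recruit the translational GTPases, with RPLP0 and RPL12 at its base and RPLP1 and RPLP2 as the flexible arms. Their 4 mRNAs fell in both media, with a median of -6.26 in complete medium and -4.67 without glucose, though with quantile normalization only 1 of the 4 passed without glucose and RPLP2 stood at 0.10. RPLP1 (chromosome 15, 69452784 to 69456194, plus strand) had 1689.5 and 1238 RPKM in the inputs and 75.7 and 31.8 in the IPs of complete medium, with 1767 and 2045 and then 343 and 372 in those without glucose. Its change of -6.52 ± 0.52 was the lowest of all members in complete medium (limma adjusted p = 3.10e-05), and it was -5.21 ± 0.52 without glucose (7.14e-05). RPL12 (chromosome 9, 127447674 to 127451405, minus strand) went from 1287 and 798 RPKM to 45.7 and 27.8 in complete medium and from 991 and 1044 to 126 and 140.4 without glucose. With -6.45 ± 0.48 and -5.72 ± 0.48 it was second lowest in each medium (limma adjusted p = 2.76e-05 and 4.18e-05). RPLP2 (chromosome 11, 809647 to 812880, plus strand) had 1138 and 755 RPKM in the inputs and 67.6 and 26.9 in the IPs of complete medium, then 1200.4 and 1217 against 455 and 506 without glucose. Its changes were -6.08 ± 0.54 and -4.13 ± 0.54 (limma adjusted p = 4.29e-05 and 0.00024), with no overlap of groups in either medium. RPLP0 (chromosome 12, 120196686 to 120201235, minus strand) had input values of 499 and 467 RPKM and IP values of 78.3 and 52.2 in complete medium, against 427 and 420.4 and, in the IP, 189 and 213 without glucose, changes of -4.57 ± 0.40 and -3.87 ± 0.40 (limma adjusted p = 3.94e-05 and 7.68e-05). RPLP0 was the stalk member nearest to its input in both media on this scale. With quantile normalization and without glucose RPLP0 stood at -0.25, lower than RPLP2 at 0.10.

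Among proteins at the tRNA sites and the catalytic centre, RPL3 reaches towards the peptidyl transferase centre, RPL10 sits by the tRNA in the A and P sites, and RPL10A forms the movable arm by the exit site. RPL3 (chromosome 22, 39312882 to 39320389, minus strand) had 180.3 and 174 RPKM in the inputs of complete medium against 118 and 66.7 in its IPs. Without glucose it had 263 and 251 RPKM in the inputs and 637 and 739 in the IPs, so that the IPs were higher as deposited and lower after scaling, at 1034 and 924 against 373 and 373. Its scaled changes of -2.67 ± 0.41 and -1.39 ± 0.41 (limma adjusted p = 0.000632 and 0.0173) were the third highest in complete medium and the highest without glucose. The glucose-free call was lost without any 1 of the 4 glucose-free libraries (-1.47 to -1.31), and the direction turned on each of the 3 other scales named above. With quantile normalization the complete-medium call was lost too (-0.0058). RPL10A (chromosome 6, 35468408 to 35470785, plus strand) had 465 and 309 RPKM in the inputs and 42.8 and 47.9 in the IPs of complete medium, with 851 and 874 and then 291 and 321 in those without glucose. It fell in both, at -4.71 ± 0.45 and -4.30 ± 0.45 (limma adjusted p = 5.54e-05 and 8.24e-05), the second of which was lost with quantile normalization (-0.35). RPL10 and RPL8, the other well-covered members here, fell to -5.07 ± 0.50 and -4.02 ± 0.49 in complete medium, and to -3.96 ± 0.50 and -3.28 ± 0.49 once glucose was absent. RPL10 shares 55.5% of its exon bases with other genes, so its values are less certain. The glucose-free call of RPL8 was lost as deposited and turned to higher with quantile normalization, where its complete-medium call was lost too.

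The tunnel through which the new chain leaves is lined by RPL4, RPL17 and RPL39, and its mouth is ringed by RPL19, RPL23A, RPL26, RPL31 and RPL35. RPL4 (chromosome 15, 66498015 to 66524532, minus strand) had 136 and 158 RPKM in the inputs of complete medium against 80.4 and 91.9 in its IPs. Without glucose it had 151 and 151 RPKM in the inputs and 272 and 303 in the IPs, higher in both IPs as deposited and, after scaling, 596 and 556 against 159 and 153. With -2.44 ± 0.35 and -1.88 ± 0.35 it was the second highest member in each medium (limma adjusted p = 0.000396 and 0.00152). The complete-medium call was lost as deposited (-0.77) and turned to 0.13 with quantile normalization, and the glucose-free direction turned on 3 scales. RPL23A (chromosome 17, 28719393 to 28724359, plus strand) had input values of 592 and 394 RPKM and IP values of 33.4 and 36.7 in complete medium, against 266 and 272 and, in the IP, 78.5 and 87.3 without glucose, changes of -5.41 ± 0.42 and -4.48 ± 0.42. RPL31 was the lowest of the tunnel group in complete medium at -5.97 ± 0.45. RPL17 (chromosome 18, 49488453 to 49492523, minus strand) was listed far below the other members, at 4.78 and 3.68 RPKM in the inputs and 0.610 and 0.172 in the IPs of complete medium, with 2.47 and 2.45 and then 1.17 and 1.18 in those without glucose. These values rest on 9 to 374 reads, and 35.3% of its exon bases are shared with other genes such as the readthrough gene RPL17-C18orf32, so its level and its changes of -3.05 ± 0.28 and -2.66 ± 0.28 are uncertain.

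RPL39 (chromosome X, 119786504 to 119791643, minus strand), the small protein of the lower tunnel, was the 1 member whose level differed by orders of magnitude between media. It was listed at 9.10 and 6.59 RPKM in the inputs and 0.855 and 13.1 in the IPs of complete medium, with 2106 and 2159 and then 178 and 162 in those without glucose. The complete IPs straddled the complete inputs as deposited, while the glucose-free IPs were far below their inputs. Its processed pseudogenes moved alongside: RPL39P3 was listed at 11.3 and 4.93 RPKM in the complete inputs and at 4996 and 5328 in the glucose-free inputs, and RPL39P38 at 1.65 and 0.335 and at 670.0 and 639. The values of each medium came in their own table, so medium and any difference in how the tables were made cannot be told apart, and RPL39 is given as uncertain. Its changes were -2.18 ± 0.75 in complete medium (limma adjusted p = 0.0318), the highest of all members, and -6.44 ± 0.75 without glucose (0.000138), the lowest. The complete-medium call was lost on deposited values and without IP replicate 1 (-0.82) or either input (-1.72 and -2.64), and with the coding length trend removed the value turned to 0.46.

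RPL23, RPL24, RPL30 and RPL41 take part in contacts with the small subunit, and their mRNAs fell in both media with medians of -4.79 and -4.85, of which 1 of 4 passed without glucose with quantile normalization. RPL41, the shortest member with 25 codons, was among the most abundant per exon length, with 2588 and 1474 RPKM in the inputs and 152 and 104 in the IPs of complete medium, with 2589 and 2723 and then 473 and 652 in those without glucose. It fell to -5.63 ± 0.54 and -5.06 ± 0.54 (limma adjusted p = 5.58e-05 and 9.02e-05). RPL23 was nearest to its input in this group, at -4.49 ± 0.54 and -4.29 ± 0.54.

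The remaining 22 members ranged from -6.34 for RPL27 to -3.58 for RPL7 in complete medium and from -5.61 for RPL27 to -3.16 for RPL22 without glucose. RPL27 (chromosome 17, 42998273 to 43002959, plus strand), one of the genes mutated in Diamond-Blackfan anaemia, had input values of 2244 and 1398 RPKM and IP values of 78.0 and 60.7 in complete medium, against 1515 and 1666 and, in the IP, 214 and 239 without glucose. It was the third lowest member in both media, at -6.34 ± 0.48 and -5.61 ± 0.48 (limma adjusted p = 2.76e-05 and 4.36e-05). RPL22 (chromosome 1, 6185020 to 6209389, minus strand), an RNA-binding member with the paralog RPL22L1, had 80.5 and 32.8 RPKM in the inputs and 7.15 and 11.1 in the IPs of complete medium, with 55.7 and 59.96 and then 42.1 and 45.2 in those without glucose. The glucose-free groups lay close together as deposited without overlapping, and the scaled changes were -4.01 ± 0.52 and -3.16 ± 0.52 (limma adjusted p = 0.000259 and 0.000848). Its glucose-free call was lost as deposited (-0.40) and with quantile normalization (-0.99). RPL38 (chromosome 17, 74203582 to 74210655, plus strand), which in mouse is needed for the translation of certain Hox mRNAs, had input values of 434 and 249.6 RPKM and IP values of 38.2 and 43.1 in complete medium, against 507 and 528 and, in the IP, 144 and 149.9 without glucose. Its changes of -4.66 ± 0.47 and -4.61 ± 0.47 had limma adjusted p = 6.96e-05 and 7.27e-05, and differed between media by 0.05 ± 0.66 (95% interval -1.45 to 1.54, limma adjusted p = 0.967).

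Members kept much of their order between media. Across 44 members without RPL39, the change in complete medium and that without glucose correlated with r = 0.844 and rho = 0.799 (0.620 and 0.682 over all 45). The points of this description share the genes, their lengths and the common scale, but no library. RPL12, RPL27 and RPLP1 stood at the low end and RPL3, RPL4 and RPL5 at the high end in both.

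**Figure D3:**
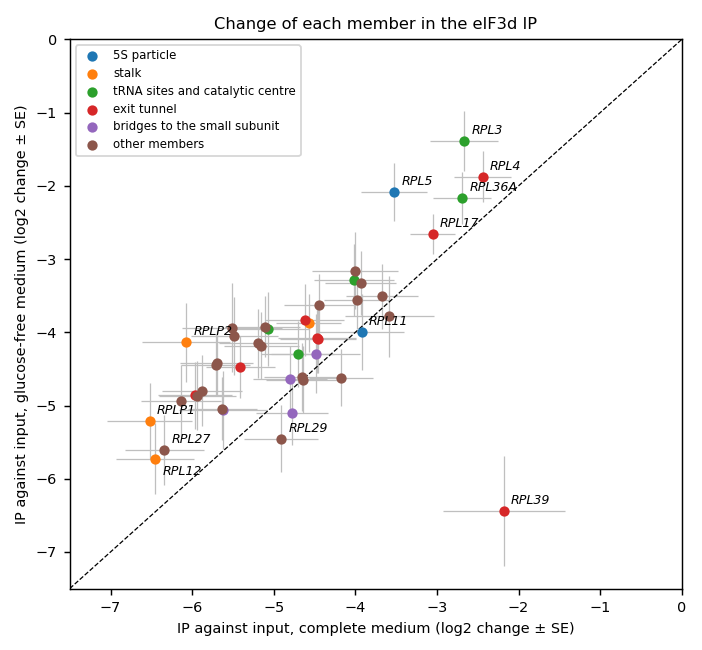
Log2 change of each member in the eIF3d IP against input in complete (x axis) and glucose-free (y axis) media, scaled RPKM, with SE bars and colours by role of the protein; the dashed line marks equal change. Of the 45 members 38 lie above the line, from RPL12 and RPL27 up to RPL3 and RPL4, with RPL39 far below it, and RPL3, RPL4 and RPL5 lie above 0 without glucose when RPKM is taken as deposited.

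Members with long coding sequences lay nearer to their inputs. The 5 members under 300 nucleotides of coding sequence had a median change of -5.63 in complete medium and -4.86 without glucose. The 16 of 300 to 450 had -5.14 and -4.53, the 16 of 450 to 700 had -4.99 and -4.12, and the 8 of 700 and above had -3.63 and -3.30. Between log10 coding length and change, r was 0.528 in complete medium and 0.569 without glucose over the 44 members without RPL39 (0.348 and 0.619 over all 45), and 0.580 and 0.493 over the other 8273 tested coding genes. The other genes thus showed a like relation. Against log2 input RPKM, r was -0.603 and -0.578 over the 44 members (-0.655 and -0.596 over all 45). Members abundant in the input thus lay lower, to a like degree. The input level also enters the change itself, and what underlies either relation was not tested. The family's coding sequences of 75 to 1281 nucleotides (median 471) are short against a median of 1329 for the other genes. When each library's trend on coding length, fitted outside the ribosomal protein genes, was removed, 44 members were still lower in complete medium and 45 without glucose, with medians of -3.57 and -3.29. This check was added after the data were seen. RPKM here divides by all annotated exon bases of a gene, a median of 7.21 times the coding length of the members, so levels compared between genes carry that divisor.

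**Figure D4:**
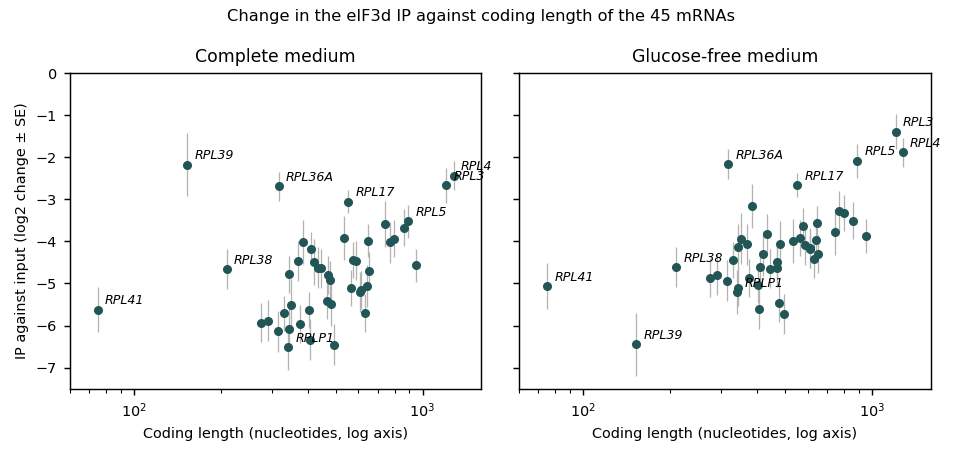
Log2 change in the eIF3d IP against input (scaled RPKM, SE bars) against coding length in nucleotides (log axis) for the 45 members, in complete and glucose-free media. RPL3 and RPL4, with the longest coding sequences, lie highest among well-covered members, with RPL5 next, while RPL36A, RPL17 and RPL39 are uncertain in level, and as deposited RPL3, RPL4 and RPL5 lie above 0 without glucose.

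Members with the start motif lay lower in the median than those without it. The 28 members with a TOP start had a median of -4.99 in complete medium and -4.28 without glucose, and the 10 with a listed start that lacks it had -4.45 and -3.86. Those 10 include RPL3 and RPL4, with the longest coding sequences, and RPL17, which is uncertain. The medians were not adjusted for coding length, and what underlies their difference was not tested. RPL27, without the motif at its listed start, lay near RPL12, which has it. Over 27 members with the motif and without RPL39, the length of the run and the change gave r = 0.206 and 0.363.

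Reads that copies could claim were counted as well. The files list 749 pseudogene rows for 44 of the members, and these held 7.59 to 9.94 reads per 100 member reads in the 8 libraries. For 14 members, RPL8, RPL11, RPL27, RPL28 and RPLP1 among them, pseudogenes held under 1 read per 100 in all libraries, and 14 of 14 were lower in both media with medians of -4.94 and -4.61. RPL7, with 31.2 to 50.9 pseudogene reads per 100, RPL21, with 33.4 to 67.3, and RPL10, with 25.3 to 39.7, are among those less certain. RPL36A, like RPL17, was listed at 4.22 and 2.24 RPKM in the inputs and 0.133 and 0.559 in the IPs of complete medium, with 1.33 and 1.63 and then 0.758 and 0.985 in those without glucose, with 242 or more pseudogene reads per 100 of its own. Exon bases of 30 members are shared with another annotated gene, and no source used here says whether counting used strand.

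The next comparison asked whether the depletion differed between media, where medium and the making of the values cannot be told apart. The IP levels themselves were higher without glucose: both glucose-free IPs lay above both complete IPs for 45 of 45 members as deposited, against 49.0% of all tested genes, and for 44 after scaling, against 40.1%. Relative to input, 38 members had a smaller depletion without glucose and 7 a larger one, with a median difference of 0.73 (log2) against -0.01 for all genes. By limma 0 members passed the threshold for this difference, where 2.62% of all genes were called lower and 1.90% higher. At an unadjusted p under 0.05 there were 3 members, against 26.7% of all genes, and voom on recovered reads also called 0. On simulated data this difference was recovered for 61.0% of genes changed 8-fold and for 0 of those changed 4-fold. The changed genes were drawn at random from all tested genes, so these rates were not measured for the members.

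RPLP2 had the highest difference at 1.94 ± 0.77 (95% interval 0.21 to 3.68, limma adjusted p = 0.152), and passed without complete IP replicate 1 (2.54). RPL34 followed at 1.57 ± 0.86 (interval -0.38 to 3.53, 0.27), from 159 and 59.8 RPKM in the inputs and 3.33 and 8.54 in the IPs of complete medium, with 192 and 206 and then 94.3 and 84.2 in those without glucose. RPL5 was the third, as given above, and passed without complete input replicate 2 (1.86), as RPL22 did (1.74). At the other end, after RPL39 at -4.26 ± 1.06 (interval -6.66 to -1.86, limma adjusted p = 0.0585; -5.63 and past the threshold without complete IP replicate 1), stood RPL29 and RPL28. RPL29 had 1082 and 865 RPKM in the inputs and 84.4 and 123 in the IPs of complete medium, with 1325 and 1368 and then 195 and 233 in those without glucose, a difference of -0.54 ± 0.64 (interval -2.01 to 0.92, limma adjusted p = 0.607). RPL28 had input values of 349.7 and 307 RPKM and IP values of 48.5 and 66.6 in complete medium, against 306 and 328 and, in the IP, 78.4 and 99.7 without glucose, a difference of -0.44 ± 0.56 (interval -1.71 to 0.82, limma adjusted p = 0.626). The intervals of RPL28 and RPL29 include 0, as do those of 42 members in all.

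The count of 0 depended on the scale and on the libraries of complete medium. As deposited 30 members were called higher without glucose and 1 lower, while calls over all genes turned from 265 lower and 192 higher to 311 and 2959, or 29.3% higher. Quantile normalization called 23 members higher, with 7.51% of all genes, and scaling to the other coding reads 10, with 11.5% of all genes. Without complete input replicate 2, where members are lowest among the inputs, 11 were called higher with a median of 1.23, against 6.76% of all genes. Without complete IP replicate 1, RPLP2 was called higher and RPL39 lower, where 10.9% of all genes were called higher and 14.3% lower. Without complete input replicate 1 the median was 0.14 with no member called.

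The inputs of both media were compared next, to show the mRNA levels before the IP. Here too, medium and the making of the values cannot be told apart. Without glucose 17 of 45 members rose, where 18.4% of all tested genes were called higher and 16.6% lower, with a median of 1.15 against -0.04 for all genes. On deposited values 4 rose, RPL10A (1.18), RPL21 (1.42) and RPL38 (0.65) not among them, and with quantile normalization 1 did, RPL39. After scaling, both glucose-free inputs lay above both complete inputs for 40 members, against 36.3% of all tested genes. As deposited this did not hold for some members, RPL11, RPL12 and RPL27 among them, whose inputs overlapped between media. RPL7 had 91.5 and 49.8 RPKM in the complete inputs and 268 and 284 in the glucose-free inputs, the largest rise after RPL39 at 2.79 ± 0.55 (limma adjusted p = 0.00634). RPL21 followed, from 154 and 91.8 to 314 and 328 RPKM, at 2.19 ± 0.53 (0.0142 by limma). RPL10A, from 465 and 309 to 851 and 874 RPKM, rose by 1.95 ± 0.45 (limma adjusted p = 0.0116) and RPL38 by 1.42 ± 0.47 (0.0434 by limma). RPL39 gave 8.79 ± 0.75 (limma adjusted p = 9.42e-05), with the reservation above. RPL7 and RPL21 are less certain as well, for their pseudogenes. Those of RPL7 held 37.1 and 31.2 reads per 100 in the complete inputs and 44.5 and 43.9 in the glucose-free inputs. Those of RPL21 held 67.3 and 66.1, then 33.8 and 33.4. Of 123 tested pseudogenes of members, 68 were called higher in this comparison and 5 lower. Without complete input replicate 2 the calls of RPL21 (1.57) and RPL38 (0.76) were lost. Without either glucose-free input those of RPL10A (1.92 and 1.98), RPL21 (2.18 and 2.21) and RPL38 (1.40 and 1.44) were lost, and that of RPL38 also without either glucose-free IP.

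At the low end, RPL36A gave -0.28 ± 0.35, RPL23A -0.08 ± 0.42 and RPL17 -0.01 ± 0.28, with limma adjusted p = 0.563, 0.898 and 0.979. Of these RPL23A is well covered, and its glucose-free inputs lay below its complete inputs as deposited. RPL5, RPL11, RPL22 and the 4 stalk mRNAs did not pass, with values from 0.58 ± 0.40 for RPLP0 to 1.16 ± 0.52 for RPLP1. Without complete input replicate 1, RPL5 (1.55), RPL11 (1.51), RPL22 (1.82), RPLP1 (1.64) and RPLP2 (1.70) passed, and without replicate 2 RPL36A (-0.90) did. RPL5 also passed without either complete IP. The count of 17 moved with the library left out, as calls over all genes did, and the members' median then ran from 0.66 to 1.68. As deposited the count was 4, with calls over all genes of 1311 lower and 517 higher in place of 1677 and 1856. With quantile normalization the count was 1. Over the alternatives other than leaving out 1 library, 517 to 1989 of all genes were called higher.

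**Figure D5:**
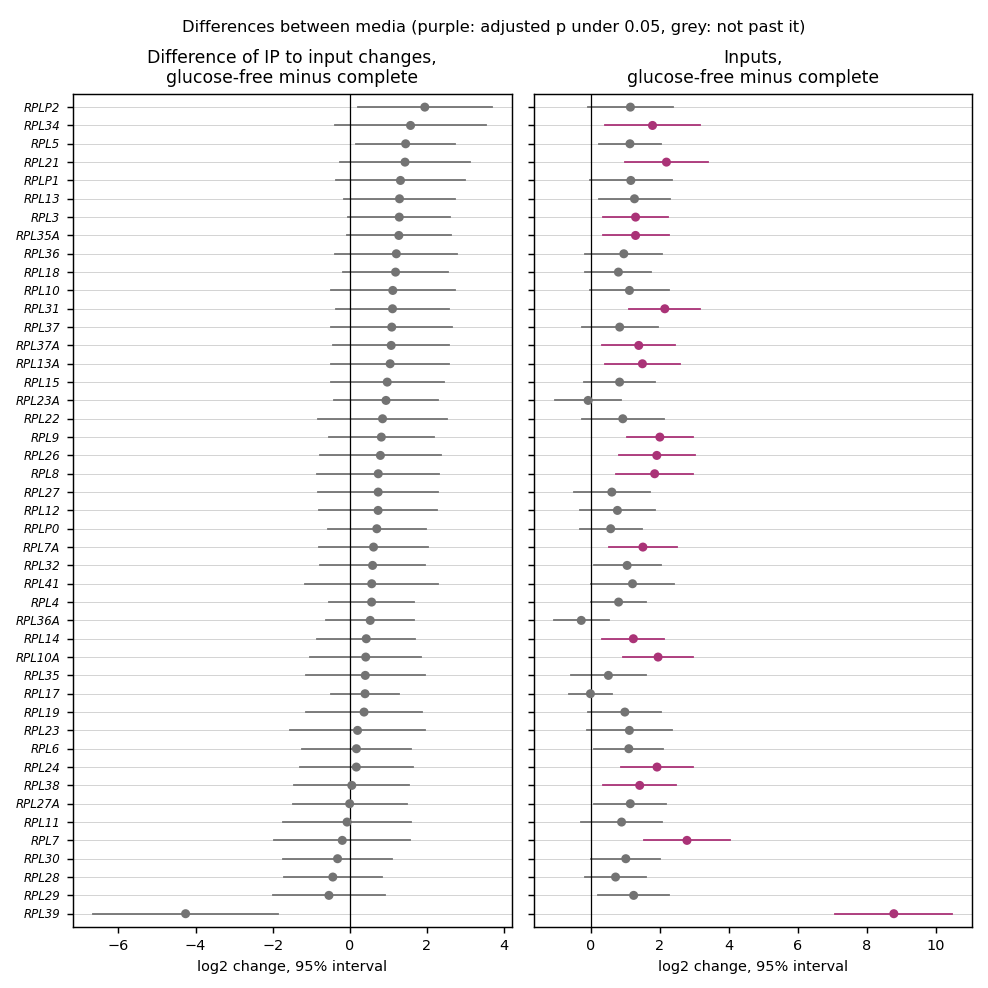
Difference between media, glucose-free minus complete, with 95% intervals (log2, scaled RPKM), for the change in the IP against input (left) and for the inputs (right), members ordered by the left panel. On the left no member passes the adjusted threshold and RPLP2 is highest at 1.94, though 30 members pass as higher on deposited values; on the right 17 purple members pass, led by RPL39 and RPL7, and 1 does with quantile normalization.

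Other genes of the ribosome followed in part. Of the 32 small subunit mRNAs, 32 fell in each medium (32 and 24 as deposited, 30 and 15 with quantile normalization), with medians of -5.16 and -4.41, and RPS21 was the lowest at -7.12 ± 0.50 and -5.93 ± 0.50. Mitochondrial large subunit mRNAs, whose proteins serve the separate mitochondrial ribosome, fell in 42 and 43 of 46 with medians of -2.44 and -2.37. Of all tested genes 30.1% and 32.1% fell. As deposited without glucose, 7 of the 46 were lower and 12 higher, where 554 and 8250 of all 10100 tested genes were. After scaling the mitochondrial mRNAs ranged from MRPL41 at -5.13 ± 0.33 and -4.21 ± 0.33 to MRPL53 at 0.20 ± 0.21 and 0.52 ± 0.21. MRPL53 did not pass the threshold in either medium.

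Other mRNAs known to carry a TOP motif fell in part. Of 17 tested, 9 fell in complete medium and 10 without glucose, with medians of -1.07 and -1.37. Of all tested genes 30.1% and 32.1% fell. As deposited 5 of the 17 were lower and 6 higher in complete medium, and 12 were higher without glucose. On deposited values 6426 and 8250 of all 10100 tested genes were called higher in complete medium and without glucose. RACK1, a scaffold protein of the small subunit, was lowest in complete medium at -4.16 ± 0.40, and EEF1B2, a nucleotide exchange factor subunit of elongation, without glucose at -3.76 ± 0.49 (-0.96 and not past the threshold as deposited). IPO7 and EIF4B, the highest of these in complete medium and without glucose, stood at 0.79 and 0.56 and did not pass. EEF2, the elongation factor of translocation, stood at -0.77 ± 0.43 and 0.38 ± 0.43 without passing.

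Of 37 tested large subunit assembly factors, 12 fell in complete medium and 20 without glucose, where 30.1% and 32.1% of all tested genes did, with medians of -0.30 and -0.75, but as deposited 2 were lower and 22 higher in complete medium and 32 were higher without glucose. EIF6, which keeps new large subunits from joining, was lowest in both media at -3.25 ± 0.29 and -2.98 ± 0.29 (-0.24 and not past the threshold without glucose as deposited), and MDN1, the giant ATPase that strips assembly factors, was the 1 that rose in each medium, by 2.89 ± 0.30 and 1.74 ± 0.30, and was higher on all 4 other scales tried. Of the 4 chaperones of single ribosomal proteins, AAMP and BCCIP fell in each medium, BCCIP to -1.78 ± 0.27 and -1.89 ± 0.27, but neither did as deposited, where AAMP was higher without glucose. MDM2, the partner of free RPL5 and RPL11, was higher in the IP in each medium, at 1.24 ± 0.28 and 0.96 ± 0.28 (limma adjusted p = 0.00431 and 0.0147), but the call without glucose was lost when values were centred after the log (0.34) and with quantile normalization (0.60).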

How the data were processed

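Polyadenylated RNA of the eIF3d IP and of the input was sequenced in 8 libraries, 2 in each of 4 groups set by the labels. The authors deposited RPKM, reads divided by exon length and library size, in 1 table per medium. The tables list 57998 and 57978 genes, and the few identifiers repeated under several symbols were used once. The submitters' processing notes name cutadapt, HISAT2, SAMtools and the build GRCh38, without versions. For read counter, annotation and strand nothing is stated, so they count as not given in the sources used here. Treatment of reads that map to several places, which bears on pseudogene copies, is likewise unstated.

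Each library was scaled to a common median over the 10100 genes with a mean of at least 1 RPKM, a pseudocount of 1 was added, and log2 values were fitted with limma 3.58.1 (R 4.3.3, 4 group means, trended variance, Benjamini-Hochberg adjustment over all tested genes, adjusted threshold of 0.05). A pseudocount understates changes of low genes. Multiplied by exon lengths from GENCODE release 29, 97.5% to 98.0% of the low RPKM in each library (up to 50 reads) became whole numbers to within 0.02, and these reads gave shares, library totals and counting intervals. Intervals cover counting error only, since reads are not independent molecules. Shares were compared by exact permutation tests (SciPy 1.17.1). On simulated data the fit recovered 93.5% of genes changed 8-fold and 46.0% of those changed 4-fold in the complete IP comparison, and 91.5% and 70.0% in the glucose-free one. The changed genes were drawn at random from all tested genes and not from the members.

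The members and lists were chosen with earlier results of these data known. The text names the 3 lowest and 3 highest members of each comparison and RPL5, RPL11, RPL22, RPL38, RPL10A, RPLP0, RPLP1 and RPLP2, with other members as examples of their role, chosen after their values were seen. Alternatives were another pseudocount, other filters, scalings and centring, removal of trends on coding length and GC content, voom on recovered reads, only the libraries compared, and leaving out each library. Whether the numbered replicates pair the samples was checked, and with 2 numbers a group they were not taken to. Results for a few genes of the lists are not reported here.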

Additional observations from a re-analysis of the deposited data

How the results depend on the processing

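Members called lower in the complete IP numbered 38 to 45 under all settings tried. On deposited values the members' median was -3.04 in complete medium and -1.35 without glucose, with 2 members higher in the latter, 1.86 for the difference between media, with 1 lower and 30 higher, and 0.38 for the inputs, with 4 higher. RPL3, RPL4 and RPL5 then stood at 1.41, 0.92 and 0.72 without glucose. With quantile normalization the medians were -2.64, -0.89, 1.90 and 0.079 in the same order, with 17 members lower and 5 higher in the glucose-free IP, 23 higher for the difference and 1 higher in the inputs. RPL4 then stood at 0.13 in complete medium, and RPL3, RPL4, RPL5 and RPLP2 at 2.88, 1.59, 1.49 and 0.10 without glucose. With libraries scaled to coding reads other than the members the medians were -3.37, -2.12, 1.42 and 0.43, with 10 higher for the difference and 6 higher in the inputs, and RPL3 and RPL4 stood at 0.65 and 0.15 without glucose. Centring after the log gave medians of -4.24 and -3.26 in the IPs, 1 higher for the difference and 6 higher in the inputs. Removal of the coding length trend gave -3.57 and -3.29, RPL39 at 0.46 in complete medium, and 1 lower for the difference. With that trend removed, 1 member was lower and 15 were higher in the inputs, with a median of 0.63. For the difference, 1 was lower with length and GC trends removed and with a pseudocount of 5. In the inputs 10 were higher with a mean RPKM of at least 5, 5 with no filter and 8 with only the libraries compared. For these values the cause was not tested.

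Leaving out 1 library at a time gave medians of -5.33 to -4.16 in complete medium and 0.66 to 1.68 in the inputs, 0 to 1 lower and 0 to 11 higher for the difference, and 2 to 38 higher with 0 to 1 lower in the inputs. Where a group was left with 1 library, it was taken to vary like the others. With the replicate block 45, 45, 0 and 16 members were called in the 4 comparisons. Same-numbered input and IP libraries correlated in their deviations with r = 0.056 in complete medium and 0.12 without glucose, and the numbers were not taken to pair them. With all reads on genes as denominator the shares were 6.66% and 0.697% in the input and IP of complete medium and 9.02% and 3.38% without glucose. With pseudogenes added they were 1.41% in the complete IP and 33.9% and 6.01% without glucose, and as shares of summed RPKM 2.09%, 28.0% and 7.39%. Without RPL39 they were 30.4% and 5.47% without glucose. The removal of the coding length trend and the settings without RPL39 were chosen after seeing the data.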
